A study of Mus musculus with 42 samples.

Results

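Olfr145, Olfr151 (M71) and Olfr160 (M72) are 3 mouse odorant receptors (ORs) known as receptors for acetophenone (ACT), and their rows were followed in each of the 9 deposited tables of counts, which list up to 1088 intact ORs. Each olfactory sensory neuron (OSN) transcribes one OR gene, so the mRNA of an OR stands for the neurons that chose it. When an odorant activates an OSN, ribosomal protein S6 becomes phosphorylated, and precipitating ribosomes through phosphorylated S6 enriches the mRNA of the ORs that active neurons express (pS6-IP-Seq). M71 and M72 are close relatives long used as model ORs, with known glomeruli on the dorsal surface of the olfactory bulb and a known response to ACT, a sweet-smelling aromatic ketone.

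The series held 36 pS6-IP-Seq libraries and 6 RNA-Seq libraries of olfactory mucosa, all of C57BL/6 mice aged p20 to p22 (postnatal days), with no transgene in any group named in the labels. For 1 h, each mouse was exposed to no odor or to ACT or trimethylthiazoline (TMT, a component of fox odor) at a starting concentration of 0.01%, 0.1%, 1% or 100%, with n = 3 mice per group. Litters were the replicates: within an odorant, the 0.01% and 0.1% mice shared 3 no odor littermates ("low"), and the 1% and 100% mice shared 3 others ("high"). The RNA-Seq libraries came from dorsal (n = 3) and ventral (n = 3) olfactory mucosa without odor. The pS6-IP-Seq libraries held 37012 to 128805 counts on ORs, and the mucosa libraries 155319 to 242123. Since the tables hold ORs only, 0 of the 10 marker genes of OSNs, other mucosal cells and zones could be checked, and every level here is relative to the other ORs.

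The 3 genes lie on chromosome 9 (GRCm38, GENCODE M21 annotation). Olfr160 (ENSMUSG00000061165.9) spans chr9:37708964-37716250 on the minus strand. Olfr151 (ENSMUSG00000110526.2) spans chr9:37729977-37731104 on the same strand, 13726 bases away. Olfr145 (ENSMUSG00000066748.4) spans chr9:37896724-37903519 on the plus strand, 165619 bases beyond Olfr151. As is usual for ORs, the coding sequence of each gene lies in 1 exon. Olfr151 and Olfr160 shared 899 of 930 aligned coding bases (96.7%), whereas Olfr145 shared 68.9% with Olfr151 and 69.6% with Olfr160.

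Although Olfr151 stands among the intact ORs of the tables, GENCODE M21 labels it a polymorphic pseudogene, and the C57BL/6J reference carries a frameshift. Its coding sequence had a single-base gap opposite coding base 741 of Olfr160 (counted from 1 at the start codon), and its reading frame met a stop after 258 codons, against 309 codons in Olfr160 and 310 in Olfr145. The stretches around the gap show how alike the genes are there: the capital in Olfr160 (chr9:37711492-37711582, minus strand) marks the base without a partner in Olfr151 (chr9:37730197-37730286, minus strand), its place within the short run of equal bases being arbitrary, and no other base differed.
Olfr160: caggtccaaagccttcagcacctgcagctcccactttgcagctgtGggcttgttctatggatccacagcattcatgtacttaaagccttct
Olfr151: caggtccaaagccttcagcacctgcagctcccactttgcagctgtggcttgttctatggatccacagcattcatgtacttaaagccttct

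The stretch before the gap with the most differences, 10 in 91 bases, shows what a read can use to tell the 2 genes apart. Capitals mark the differing bases of Olfr160 (chr9:37712152-37712242, minus strand) and Olfr151 (chr9:37730856-37730946, minus strand), coding bases 36 to 126 in both.
Olfr160: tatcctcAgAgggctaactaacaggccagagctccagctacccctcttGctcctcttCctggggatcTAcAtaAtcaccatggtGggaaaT
Olfr151: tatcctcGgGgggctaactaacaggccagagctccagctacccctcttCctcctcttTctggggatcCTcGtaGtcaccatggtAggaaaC

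Reads were 50 bases long. Of the 1079 windows of that length in the longest annotated Olfr151 transcript, 355 (32.9%) occurred unchanged in Olfr160 and in no other OR. The same 355 made up 10.3% of the windows of the longest Olfr160 transcript. Olfr145 shared 0 of its 6747 windows with another of the intact ORs compared. Counts of Olfr151 and Olfr160 are therefore uncertain where reads fall in the shared windows, which the authors' counter divides by estimate. No such window with an intact OR was found for Olfr145. Pseudogenes, other genes and windows with mismatches were not compared for any member. The study's methods also say that the annotation of Olfr151 was wrong and was put right to Olfr160 in its own gene models, which are not used here, so what each of the rows named Olfr151 and Olfr160 counts is not settled by the files.

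The 3 genes differed widely in how often they were counted. Olfr145 had 30 to 2735 counts and Olfr160 had 4 to 297, both above 0 in 42 of 42 libraries. Olfr151 had at most 17 counts and was above 0 in 11 of 42. In the 12 no odor pS6-IP-Seq libraries, the normalized count (counts per 100000 OR counts after TMM scaling) of Olfr145 ran from 57.0 to 184 with a median of 140.4. The same measure ran from 14.8 to 43.4 with a median of 29.1 for Olfr160. The coefficient of variation over these 12 libraries was 28.4% for Olfr145 and 29.4% for Olfr160, and the highest library was 3.23-fold and 2.94-fold the lowest, respectively. Olfr151 had 1 count in all 12 together.

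Some ACT libraries stood apart before any member is considered. The check used the 15 ORs enriched at 0.1% TMT, and their median log2 change from the no odor littermate. It was 2.17 in the 0.01% ACT library of litter 1 and 2.83 in the 1% ACT library of litter 1, while the other 10 ACT libraries ran from -0.24 to 1.04. More than 4-fold differences from the littermate were seen for 13.5% of 922 ORs in the first of these and for 11.4% in the 100% ACT library of litter 3. The ACT libraries otherwise ran from 0.759% to 4.34%. With TMT the share was 13.1% and 7.92% in litters 3 and 2 at 100%, and 7.48% in litter 3 at 1%. The other TMT libraries ran from 1.52% to 4.12%. Member values that rest on the 3 ACT libraries named here are also given without their litter. This was done where it moved the value by over 1.5 times or changed its direction or call. The part of the libraries in these values was not tested.

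Olfr145 was enriched by 0.1% ACT. Its normalized counts in litters 1, 2 and 3 were 184, 116 and 183 without odor, 381, 259 and 175 at 0.01% ACT, and 809.5, 859 and 269 at 0.1% ACT. All 3 mice at 0.1% were above all 3 no odor mice, a pattern seen for 2.67% of ORs (5.24% of ORs at 0.01% ACT, where Olfr145 overlapped with no odor). The rise was 4.39-fold in litter 1, 7.38-fold in litter 2 and 1.47-fold in litter 3. With edgeR's quasi-likelihood test, the Log2FC at 0.1% was 1.89 ± 0.35 (SE, n = 3 per group; 95% interval 1.14 to 2.65) with an edgeR adjusted p = 0.0335, and Olfr145 was 1 of 7 ORs called higher (0.643% of 1088). The call was lost with DESeq2 (adjusted p = 0.378), with a filter on ORs with a mean count under 10 (edgeR adjusted p = 0.0859), with all 18 ACT libraries in a joint fit (edgeR adjusted p = 0.909), and without litter 1 or litter 2 (edgeR adjusted p = 1 and 0.935). Without litter 3 the edgeR adjusted p was 6.83e-10, and the Log2FC ran from 1.37 to 2.51 over all alternatives.

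**Figure D1:**
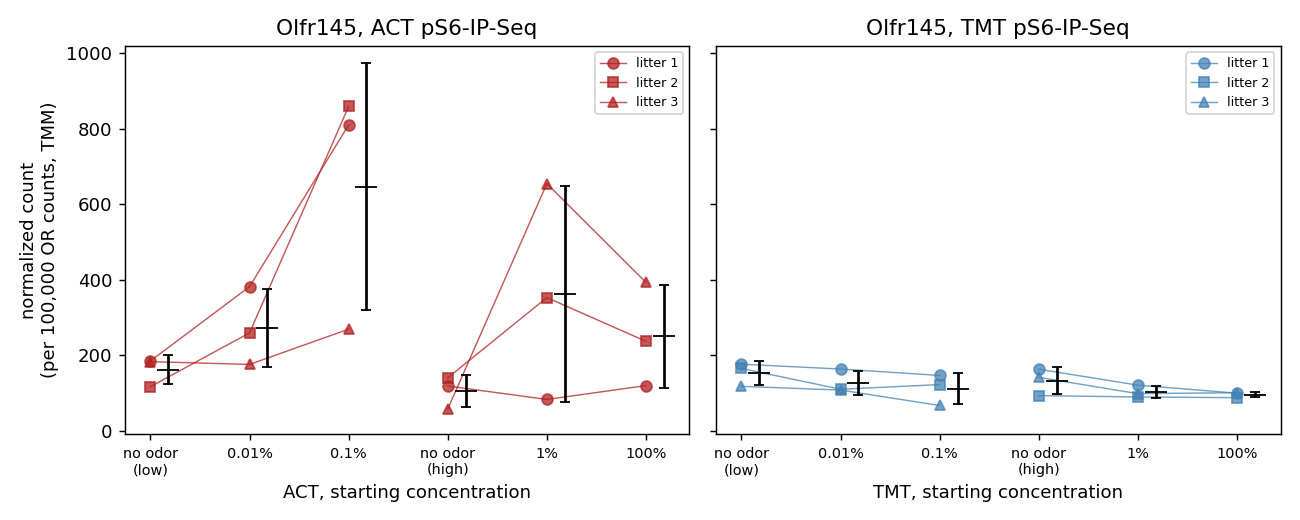
Normalized count of Olfr145 (counts per 100000 OR counts, TMM scaled) in each pS6-IP-Seq library, by starting concentration of ACT (left) and TMT (right). Lines join littermates, and black bars give mean ± SD (n = 3). Litters 1 and 2 at 0.1% ACT (809.5 and 859) and litter 3 at 1% ACT (654) are the highest, and no TMT library exceeds its no odor littermate.

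At the other concentrations of ACT, Olfr145 did not pass the test. At 0.01% the Log2FC was 0.72 ± 0.34 (SE, edgeR adjusted p = 1), or 0.56 without litter 1 (edgeR adjusted p = 0.99), with 0% of ORs called. In the second set of litters, the no odor counts were 118, 139.8 and 57.0, against 82.5, 352 and 654 at 1% and 119, 236 and 392 at 100% ACT. Litter 1 was the exception at both concentrations: its 1% mouse was 0.699-fold and its 100% mouse 1.01-fold the no odor mouse, while litter 3 rose 11.5-fold and 6.88-fold. Part of the size of the litter 3 ratios comes from its no odor mouse, which held the lowest value of all 12 no odor libraries.

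The Log2FC of Olfr145 was 1.45 ± 1.11 (SE) at 1% ACT (edgeR adjusted p = 0.986) and 1.14 ± 0.44 at 100% ACT (edgeR adjusted p = 0.271), where 1.38% and 0% of ORs were called higher. Groups overlapped at 1% and at 100%, and non-overlapping groups were seen for 4.04% and 8.64% of ORs. Without litter 1, which includes the 1% library that stands apart, Olfr145 passed at both: the Log2FC was 2.34 at 1% (edgeR adjusted p = 1.34e-08) and 1.75 at 100% (edgeR adjusted p = 0.00648). Leaving out that litter raised the ORs called higher to 19 of 1088 at 1% and 82 of 1088 at 100%. Without litter 3, which includes the 100% library that stands apart, the values fell to 0.46 and 0.40 (edgeR adjusted p = 0.959 and 0.928).

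Olfr160 (M72) was called at no concentration of ACT. Like Olfr145, it was above its littermate in 10 of 12 ACT libraries, as were 61 of 922 ORs (6.62%) in at least 10. Its normalized counts in litters 1, 2 and 3 were 19.1, 19.2 and 29.3 without odor, 226, 25.6 and 13.6 at 0.01% ACT, and 21.5, 27.9 and 34.2 at 0.1% ACT. The high value at 0.01% came from the single litter 1 library that stands apart, where Olfr160 was 11.9-fold its littermate, and the 3 mice at 0.1% overlapped with no odor. The Log2FC was 1.01 ± 0.81 (SE, edgeR adjusted p = 1) at 0.01%, which turned to -0.28 (edgeR adjusted p = 0.99) without litter 1. At 0.1% it was 0.33 ± 0.40 (edgeR adjusted p = 1, 95% interval -0.52 to 1.19).

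In the second set of litters, Olfr160 had normalized counts of 28.9, 43.4 and 36.1 without odor, 30.3, 40.3 and 64.2 at 1% ACT, and 57.4, 68.9 and 236 at 100% ACT. All 3 mice at 100% ACT were above all 3 no odor mice, as were 8.64% of ORs, and the 1% mice overlapped with them. The rise at 100% was 1.99-fold, 1.59-fold and 6.53-fold. Its Log2FC there was 1.46 ± 0.45 (SE, 95% interval 0.49 to 2.42), with an edgeR adjusted p = 0.171, and 0% of ORs were called higher. Without litter 1 it passed (1.72, edgeR adjusted p = 0.0154), as did 82 of 1088 ORs called higher. Without litter 3, whose library stands apart, it was 0.81 (edgeR adjusted p = 0.741). At 1% ACT the Log2FC was 0.27 ± 0.41 (edgeR adjusted p = 0.99), and -0.05 without litter 3 (edgeR adjusted p = 1).

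**Figure D2:**
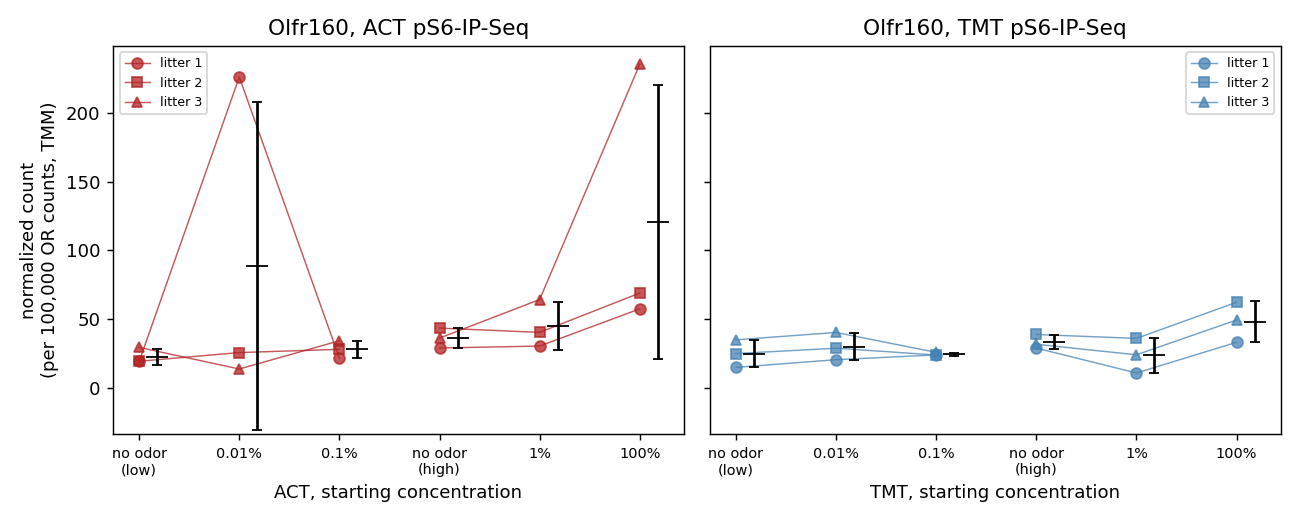
Normalized count of Olfr160 (counts per 100000 OR counts, TMM scaled) in each pS6-IP-Seq library, by starting concentration of ACT (left) and TMT (right). Lines join littermates, and black bars give mean ± SD (n = 3). Litter 1 at 0.01% ACT (226) and litter 3 at 100% ACT (236) stand above the other libraries, which lie between 10.7 and 68.9.

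Olfr151 (M71) was near the detection limit of the pS6-IP-Seq libraries, with 17 counts in 36 libraries and a count in only 7 of them. It had 6, 3 and 0 counts at 0.1% ACT, in litters 1, 2 and 3, and 0 in the 3 no odor littermates. A sum of 0 in 258703 OR counts allows up to 1.16 per 100000 (3 counts over the group), against 2.94 per 100000 at 0.1% ACT, where 6 of the 9 counts came from litter 1. The difference did not pass the test (edgeR adjusted p = 1). It had 0 counts at 0.01% ACT, 1 at 1% ACT and 0 at 100% ACT, a response that was not detectable at this depth. With TMT it had 1 count in all at 0.01%, 0 at 0.1% and 1%, and 5 at 100% (2, 3 and 0 in litters 1, 2 and 3), against 1 in the no odor littermates of the last. The mean normalized count of Olfr151 was 3.45 ± 3.17 (SD, n = 3) at 100% TMT and 2.75 ± 2.69 at 0.1% ACT. The limit of 1.16 per 100000 covers counting error only.

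With TMT, an odorant of another structure, Olfr145 was at or below its no odor level. Its normalized counts were 176, 165 and 117 without odor, 163, 109.5 and 107 at 0.01% TMT, and 146, 122 and 66.5 at 0.1% TMT. In the second set of litters they were 162, 92.5 and 141 without odor, 120.3, 89.1 and 97.7 at 1% TMT, and 99.0, 87.1 and 100.4 at 100% TMT. Olfr145 was thus below its littermate in 12 of 12 TMT libraries, a pattern held by 3 of 922 ORs (0.325%), though pairs of these libraries share a littermate.

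The Log2FC of Olfr145 with TMT was -0.28 ± 0.25 (SE) at 0.01%, -0.49 ± 0.24 at 0.1%, -0.38 ± 0.28 at 1% and -0.49 ± 0.29 at 100%. In edgeR the adjusted p was 0.963, 0.665, 0.80 and 0.319, and 0.46%, 2.02%, 4.87% and 14.9% of ORs were called in either direction. Without litter 3 the Log2FC was -0.23 at 1% and -0.43 at 100% TMT (edgeR adjusted p = 0.945 and 0.699). At 100% TMT the call depends on the scaling: with the size factors recovered from the tables' mean columns, the Log2FC was -0.79 (edgeR adjusted p = 0.0471). That scaling moved the median of all ORs from -0.08 to -0.38, and relative to this median Olfr145 was at -0.41 under either. The ORs called at 100% TMT split into 126 higher and 36 lower with TMM, and 105 and 101 without it.

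For Olfr160, the TMT values lay on both sides of no odor, with 7 of 12 libraries above their littermate. Its normalized counts were 14.8, 24.8 and 34.9 without odor, 20.4, 28.7 and 40.2 at 0.01% TMT, and 23.9, 23.8 and 25.7 at 0.1% TMT. In the second set of litters they were 28.9, 38.7 and 31.6 without odor, 10.7, 35.9 and 23.9 at 1% TMT, and 33.0, 62.2 and 49.3 at 100% TMT. The groups overlapped at all 4 concentrations. The Log2FC was 0.27 ± 0.48 (SE), 0.03 ± 0.47, -0.57 ± 0.50 and 0.46 ± 0.46 from the lowest to the highest concentration, and none passed the test (lowest edgeR adjusted p = 0.645, at 100%). The value at 0.1% was -0.27 without litter 1 (edgeR adjusted p = 0.966). Those at 1% and 100% were -0.57 and 0.43 without litter 3 (edgeR adjusted p = 0.939 and 0.826).

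**Figure D3:**
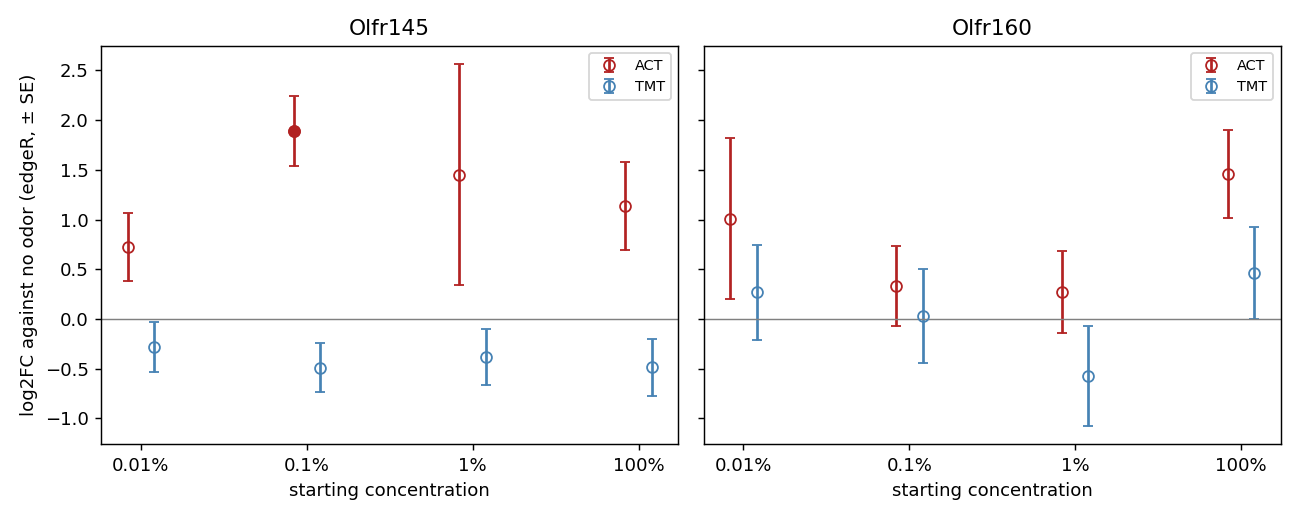
Log2FC against no odor (y axis, edgeR, bars are ± SE) of Olfr145 (left) and Olfr160 (right) at each starting concentration (x axis) of ACT (red) and TMT (blue). The filled point passed the test (Olfr145 at 0.1% ACT, 1.89), open points did not. Olfr145 lies above 0 with ACT and below 0 with TMT at each concentration.

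Next, the responses to ACT and TMT were compared directly, each against its own no odor littermates. Leaving out a litter in these comparisons removed the litters of that number for both odorants. At 0.1% the Log2FC of Olfr145 with ACT exceeded that with TMT by 2.37 ± 0.41 (SE, 95% interval 1.53 to 3.21, edgeR adjusted p = 4.82e-04), and Olfr145 was 1 of 7 ORs called in this direction (0.643%). The call held under each of the alternatives run for it, with differences from 1.88 to 2.85 and a highest adjusted p of 0.00975, in the edgeR fit without the litter block. Those alternatives were DESeq2, no TMM, no litter block and each litter number left out. The filter on low counts, the recovered size factors, the likelihood ratio test and a joint fit of all concentrations were not run for it. Of these, the filter and the joint fit had lost the call of Olfr145 at 0.1% ACT against no odor. The differences of Olfr145 were 1.00 ± 0.40 at 0.01% (edgeR adjusted p = 1), 1.81 ± 1.05 at 1% (edgeR adjusted p = 1) and 1.61 ± 0.54 at 100% (edgeR adjusted p = 0.252), with 0%, 0% and 0.0919% of ORs called. Without litter 1 those at 1% and 100% passed, with 2.63 (edgeR adjusted p = 0.00283) and 2.07 (edgeR adjusted p = 0.0275), where 6 and 23 of 1088 ORs were called in this direction. Without litter 3 that at 100% was 0.81 (edgeR adjusted p = 1).

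The corresponding differences of Olfr160 were 0.75 ± 0.95 (SE) at 0.01%, 0.29 ± 0.64 at 0.1%, 0.80 ± 0.63 at 1% and 0.99 ± 0.63 at 100%. None passed the test (lowest edgeR adjusted p = 0.667). Without litter 1 the difference at 0.01% was -0.48 (edgeR adjusted p = 0.947), and without litter 3 that at 100% was 0.35 (edgeR adjusted p = 1). At 0.1% the 95% interval was -1.0 to 1.58, so differences of that size cannot be told from 0.

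Whether a member responded differently to the concentrations of ACT was tested in all 18 ACT libraries. Leaving out a litter in these fits removed the litters of that number from both the low and the high set. Olfr145 was 1.24 ± 0.53 (SE, log2 scale) higher at 0.1% than at 0.01% ACT (edgeR adjusted p = 0.776), and 0.40 ± 0.54 lower at 100% than at 1% (Log2FC -0.40, edgeR adjusted p = 0.826). Its response at 1% minus that at 0.1% was -0.51 ± 0.77, and at 100% minus 0.1% it was -0.91 ± 0.77 (edgeR adjusted p = 1 and 0.837). For Olfr160 the 4 values were -1.03 ± 0.69, 1.28 ± 0.69, -0.13 ± 1.03 and 1.16 ± 1.01 (lowest edgeR adjusted p = 0.465). Without litter 1, the response of Olfr145 at 1% minus 0.1% turned to 0.50 (edgeR adjusted p = 1) and the difference of Olfr160 between 0.1% and 0.01% to 0.62 (edgeR adjusted p = 0.953). Without litter 2, the responses at 1% minus 0.1% turned to 0.03 for Olfr145 and 0.23 for Olfr160 (edgeR adjusted p = 1 for both). Without litter 3, the response of Olfr145 at 100% minus 0.1% was -2.17 (edgeR adjusted p = 0.978) and that of Olfr160 was 0.41 (edgeR adjusted p = 0.999). Without litter 1, that of Olfr145 was -0.15 (edgeR adjusted p = 1). With all litters, edgeR with TMM and the litter block called 0% of ORs in each of the 4 contrasts. Without litter 1 it called 64 ORs at 100% against 1% and 9 at 100% minus 0.1%, with no member among them. Before adjustment, values under the threshold of 0.05 were found for 66 ORs at 0.1% against 0.01%, Olfr145 among them, for 138 at 100% against 1%, for 28 at 1% minus 0.1% and for 78 at 100% minus 0.1%, and DESeq2 called 3, 19, 0 and 1.

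Ordered by mean normalized count, Olfr145 was highest at 0.1% ACT (646 ± 327, SD, n = 3), followed by 1% ACT (363 ± 286), 0.01% ACT (272 ± 104) and 100% ACT (249 ± 137). The 4 no odor groups (105 ± 42.9 to 161 ± 38.8) and the 4 TMT groups (95.5 ± 7.29 to 127 ± 31.6) came after. For Olfr160 the order began with 100% ACT (121 ± 99.8), 0.01% ACT (88.5 ± 119.5) and 100% TMT (48.2 ± 14.6), and ended with the ACT low no odor group (22.5 ± 5.88). Every pair of neighbours in either order overlapped.

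All 3 genes were enriched in dorsal mucosa, where 37.4% of the 1087 ORs tested were called higher. Olfr145 had normalized counts of 1372, 1031 and 1851 in dorsal replicates 1, 2 and 3, and 78.7, 112 and 105 in ventral ones. Olfr160 had 150.0, 111 and 169.9 in dorsal and 8.74, 13.3 and 11.1 in ventral mucosa. Every dorsal library of both lay above every ventral one, as for 39.4% of ORs, and their dorsal to ventral ratios were similar: 17.4-fold, 9.22-fold and 17.6-fold for Olfr145, and 17.2-fold, 8.32-fold and 15.3-fold for Olfr160.

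The Log2FC of dorsal against ventral was 3.82 ± 0.49 (SE, edgeR adjusted p = 1.52e-04) for Olfr145 and 3.69 ± 0.56 (edgeR adjusted p = 1.90e-04) for Olfr160, both near the median of the 407 ORs called dorsal (3.71). The median of all ORs was -0.65 and fell to -1.24 without TMM, which gave 3.23 and 3.09. Relative to that median, Olfr145 was at 4.47 and Olfr160 at 4.34 with and without TMM. In bulk mucosa, fewer neurons with an OR and less OR mRNA per neuron cannot be told apart.

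Olfr151 had 17, 6 and 17 raw counts in dorsal and 0, 2 and 0 in ventral mucosa, so dorsal libraries were all above ventral ones. Per OR count, the sum of 40 against 2 gave a ratio of 16.6 (95% exact interval 4.30 to 142, counting error only). On this scale without TMM, the ratio was 9.34 for Olfr145 and 8.48 for Olfr160. The edgeR fit called Olfr151 (adjusted p = 0.00609), and without replicate 1 the adjusted p was 0.0762. Its counts were 5.51% of those of Olfr160 over the dorsal libraries and 1.59% over the pS6-IP-Seq libraries. What the division of shared reads contributes to these counts was not tested.

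**Figure D4:**
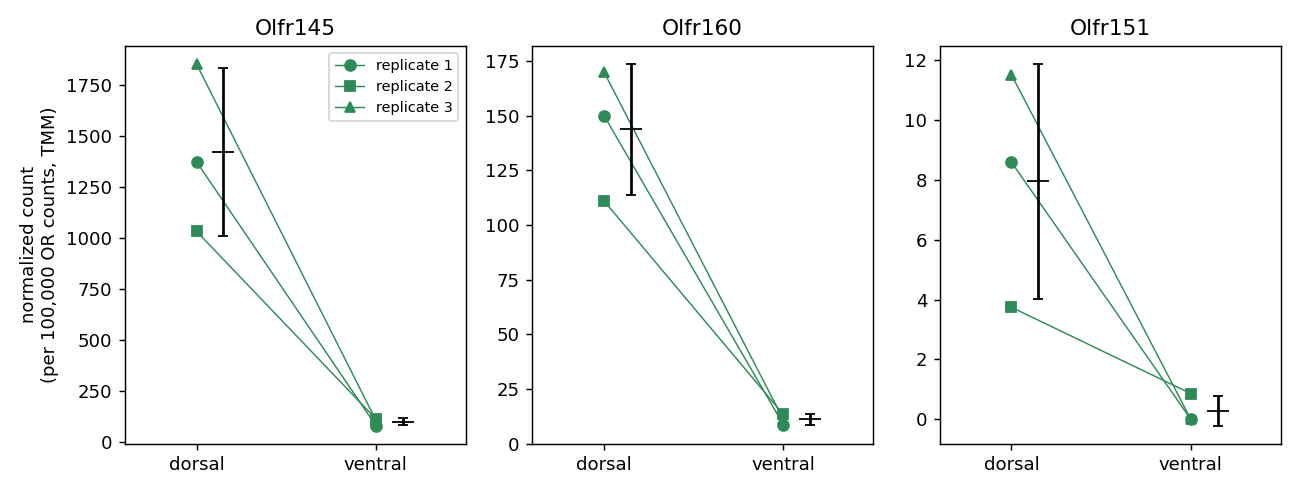
Normalized count (counts per 100000 OR counts, TMM scaled, a y axis for each gene) of Olfr145, Olfr160 and Olfr151 in dorsal and ventral mucosa. Lines join libraries with the same replicate number, and black bars give mean ± SD (n = 3). Each gene is higher in all 3 dorsal libraries, with Olfr151 at a count of 0 in ventral replicates 1 and 3.

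Olfr145 was one of the most abundant ORs of the dorsal mucosa, the 2nd by mean normalized count, with Olfr160 at rank 254 and Olfr151 at rank 876 of 1087. These ranks do not account for length, so levels between the members were compared per kilobase of the longest annotated transcript (6796 bases for Olfr145, 3492 for Olfr160 and 1128 for Olfr151). Dorsal levels were 209 ± 60.6 (SD, n = 3) per kb for Olfr145, 41.1 ± 8.59 per kb for Olfr160 and 7.04 ± 3.48 per kb for Olfr151. Olfr145 was 5.07-fold above Olfr160 on this scale and Olfr160 was 5.84-fold above Olfr151, with ranges that did not overlap. The authors counted on their own OR transcripts with UTRs, whose lengths may differ.

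Beside the members, 42 further ORs appear on a list in the study of ORs found responsive to ACT through mRNA changes after exposure in other mice (the DREAM method), which holds Olfr145 and Olfr160 too (44 ORs in the copy used here). At 0.1% ACT, edgeR called 4 of these 42 higher (9.52%, against 0.643% of all ORs) and 0 lower: Olfr923 (Log2FC 3.75), Olfr983 (2.42), Olfr1377 (2.28) and Olfr901 (1.42), all 4 also picked by the study on these samples. Without litter 1 or litter 2, 0 were called there. The median Log2FC of the 42 was 0.14, against 0.01 for all ORs. At 1% ACT only Olfr478 was called (1.44), 2.38% of the 42 against 1.38% of all ORs. At 0.01% and 100% ACT edgeR called 0, with 4 and 17 under 0.05 before adjustment. DESeq2 called 2 and 7 of the 42, and edgeR's likelihood ratio test also 2 and 7. Of all ORs, 28 and 155 were under 0.05 before adjustment. DESeq2 called 2 and 22 of all ORs higher, and the likelihood ratio test 3 and 37. Without litter 1, the quasi-likelihood test called 4 at 0.01% and 16 at 100% ACT, against 4 and 82 of all 1088 ORs called higher. The medians there were 0.35 and 0.61, against 0.02 and 0.00 for all ORs, and they were 0.12 at 0.01% without litter 1 and 0.31 at 100% without litter 3. At 100% TMT, 11 were called higher (26.2%, against 11.6% of all ORs) and 1 lower (against 3.31% of all ORs). In the mucosa, 16 of the 42 (38.1%) were called dorsal, close to the share of all ORs, and 10 ventral (against 37.2% of all ORs), the latter 1 without replicate 1 or replicate 3.

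The Log2FCs of Olfr145 with ACT lay within the range of those of the ORs that the study picked on these samples. Olfr923 had Log2FCs of 3.10, 3.75, 2.83 and 2.0 from 0.01% to 100% ACT, and Olfr1377 had 0.64, 2.28, 1.92 and 1.01. Olfr983 had 2.02, 2.42, 0.70 and -0.27, and Olfr901 had 1.53, 1.42, 0.82 and -0.50. All 4 share no odor libraries with the members, and differences between ORs were not tested. Olfr923 and Olfr1377 were dorsal like the members (Log2FC 4.41 and 3.48), while Olfr983 and Olfr901 were called in neither zone (-0.64 and -0.73).

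The 3 genes sit in a cluster of ORs, with 23 further intact ORs within 500 kb of one of them. Of these, 15 (65.2%, against 37.4% of all ORs) were called dorsal (Log2FC 2.66 to 4.11), and the median of the 23 was 3.06. The 2 called ventral, against 37.2% of all ORs, were Olfr25 (-1.26) and Olfr887 (-1.39). With DESeq2, without replicate 1 or without replicate 3, 0 were called ventral. At 0.1% ACT, 1 neighbour (4.35%, against 0.643% of all ORs) was called higher, Olfr889 (Log2FC 2.0 ± 0.41, SE). At 1% ACT 2 were (8.70%, against 1.38% of all ORs), Olfr888 (2.81) and Olfr881 (1.43). Without litter 1 or litter 2, 0 were called at 0.1% ACT, and 6 and 0 at 1% ACT, where 19 and 0 of all ORs were called higher. At 100% ACT edgeR called 0, with 10 under 0.05 before adjustment, while DESeq2 called 2 and edgeR's likelihood ratio test 4. Of all ORs, 155 were under 0.05 before adjustment, and DESeq2 and the likelihood ratio test called 22 and 37 higher. The median of the 23 there was 1.01, against 0.00 for all ORs, and it was 0.02 without litter 3, whose library stands apart, with 1 called. Without litter 1, 11 of the 23 were called at 100% ACT, against 82 of 1088 ORs called higher, and the median of the 23 was 1.56. With 100% TMT, 4 were called higher (17.4%, against 11.6% of all ORs): Olfr898 (2.57), Olfr874 (1.62), Olfr895 (1.61) and Olfr143 (1.43).

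By translated coding sequence, the closest ORs to Olfr145 were Olfr876 (84.2% identity), Olfr874 (83.9%), Olfr875 (82.6%), Olfr877 (77.7%) and Olfr904 (72.9%). Olfr160 was closest to Olfr151 (91.5%, up to the stop of Olfr151), then to Olfr985 (66.0%), Olfr229 (65.8%), Olfr145 and Olfr904 (65.0% each). After Olfr160, Olfr151 was closest to Olfr985 (64.0%), Olfr229, Olfr919 and Olfr967 (63.6% each). All 9 of these further ORs were called dorsal (median Log2FC 3.57), against 37.4% of all ORs. Among them, Olfr874, Olfr875, Olfr876 and Olfr877 were also counted above as neighbours. At 100% ACT edgeR called 0 of the 9, with 4 under 0.05 before adjustment, against 1 with its likelihood ratio test, 0 with DESeq2 and 3 without litter 1. Of all ORs, 155 were under 0.05 before adjustment with all litters, and the other settings called 37, 22 and 82 higher. The quasi-likelihood test with all litters called none at the other concentrations of ACT either, where the alternatives called at most 1 at 0.1% and 2 at 1%. The ORs most like Olfr145 had Log2FCs at 0.1% ACT of 0.60 (Olfr876), 1.17 (Olfr874), -0.08 (Olfr875), 0.36 (Olfr877) and 1.19 (Olfr904). At 100% TMT, 1 of the 9 was called higher, Olfr874 (1.62), a share (11.1%) close to that of all ORs (11.6%).

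Finally, the log2 changes from the littermate were compared across the 24 odor libraries for 922 ORs with a mean normalized count of at least 10. Olfr145 was most like Olfr923 (Pearson's r = 0.85), Olfr889 (0.82), Olfr876 (0.78), Olfr749 (0.77) and Olfr1026 (0.77). Olfr160 was most like Olfr1043 (0.83), Olfr895 (0.83), Olfr1102 (0.81), Olfr488 (0.79) and Olfr1451 (0.78). The members resembled each other less (r = 0.44). These are descriptions over libraries that share littermates, depth and the libraries that stand apart, and in the case of Olfr160 they lean on its high values at 0.01% ACT of litter 1 and 100% ACT of litter 3. In the mucosa, 4 of the 5 ORs most like Olfr145 (all but Olfr889, Log2FC -0.85) and all 5 most like Olfr160 were called dorsal, against 37.4% of all ORs.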

How the data were processed

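The authors aligned reads of the 36 pS6-IP-Seq and 6 mucosa libraries with STAR, estimated counts per gene with RSEM on GRCm38 transcripts whose OR models include UTRs and, per the study's methods, correct Olfr151 to Olfr160, and deposited rounded expected counts of the intact ORs in 9 tables. The tables also hold the authors' mean columns, a signal of size-factor-scaled counts, from which each library's size factor was recovered. Columns of the authors' own fold changes and p-values were not used. The labels give the pS6-IP protocol for the mucosa libraries too, the study's methods RNA-Seq. The description of 1 library (0.1% TMT, litter 1) names the 1% TMT table, and its stimulant label (0.1%) was used.

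Here, edgeR 4.0.16 (R 4.3.3) was fitted to the rounded counts with TMM over intact ORs, the replicate number as a block and a robust quasi-likelihood test, two-sided, with Benjamini-Hochberg adjustment over all intact ORs (threshold 0.05) and no filter on low counts. The SE is a Wald SE from the same fit. Alternatives were DESeq2 1.42.0, no TMM, the recovered size factors, the likelihood ratio test, a mean count of at least 10, no replicate block, all 18 libraries of an odorant in 1 fit, and each replicate left out. The fit of 18 libraries was not an alternative for the mucosa. Contrasts between concentrations or odorants had only DESeq2, no TMM, no replicate block and each replicate left out. A replicate number left out was removed from every experiment in the fit. Fits were also run on counts simulated with a single dispersion, no litter effect and no library that stands apart, so those features of the data were not covered. Numbers pair mice because the study used same-sex littermates for a replicate. As a check, deviations of same-numbered libraries from their group means correlated with a median r of 0.05 to 0.14 over the 4 exposure experiments, and of -0.34 between dorsal and ventral, for which no shared animal is stated, so the block there follows the study's model.

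Log2 changes per litter used a pseudocount of 1 normalized count. Genome positions and coding sequences came from GENCODE M21 and the RefSeq GRCm38.p6 genome (1082 of 1088 ORs matched by symbol). Protein identity came from translated coding sequence. Named ORs were those past the test on each list, at most the 5 with the largest Log2FC. The members and lists were chosen with earlier results of these data known.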

Additional observations from a re-analysis of the deposited data

Results flagged for a closer look

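The response of Olfr145 at 0.1% differed between the odorants. Its Log2FC was 1.89 with ACT and -0.49 with TMT, and the test of the difference gave 2.37 (edgeR adjusted p = 4.82e-04). Olfr145 was above its no odor littermate in 3 of 3 litters with ACT and below it in 3 of 3 with TMT.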

How the results depend on the processing

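Of 282 values of the members under the alternatives, with Olfr151 in the mucosa only, 261 kept their direction and their side of the threshold. Values that were not called and stayed so count as kept, so this tally says little about the calls. At 0.1% ACT, Olfr145 lost its call with DESeq2 (1.86), the filter (1.87), the joint fit (1.85), and without replicate 1 (1.72) or replicate 2 (1.37). It ran from 1.37 to 2.51 with a replicate left out. With the recovered size factors it passed at 100% TMT (-0.79). Leave-one-out ranges for Olfr145 were 0.46 to 2.34 at 1% ACT, 0.40 to 1.75 at 100% ACT, -2.05 to 0.50 and -2.17 to -0.15 for 1% and 100% minus 0.1% ACT, and 0.76 to 2.63 and 0.81 to 2.07 for ACT minus TMT at 1% and 100%. For Olfr160 they were -0.28 to 2.02 at 0.01% ACT, -0.05 to 0.47 at 1% ACT, 0.81 to 1.96 at 100% ACT, -0.27 to 0.30 at 0.1% TMT (-0.01 with no replicate block), -1.91 to 0.62 for 0.1% against 0.01% ACT, -0.43 to 0.23 and 0.41 to 1.72 for 1% and 100% minus 0.1% ACT, and -0.48 to 1.70 for ACT minus TMT at 0.01%. Olfr151 ran from 3.53 to 7.32 in dorsal against ventral mucosa, and lost its call without replicate 1. Taking out the replicate block changed no call of these values, and Olfr145 at 0.1% ACT then had a Log2FC of 2.03. The causes were not tested.

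Counts over all ORs moved more. ORs called higher ran from 0 to 11 at 0.1% ACT (7 as reported), 0 to 19 at 1% (15) and 0 to 82 at 100% (0), the last without replicate 1, and from 0 to 4 at 0.01% (0). They ran from 9 to 19 at 0.1% TMT (15), 2 to 4 at 0.01% TMT (4), 39 to 54 at 1% TMT (51) and 89 to 132 at 100% TMT (126). In the mucosa they ran from 340 to 416 (407), with 201 to 487 ventral (404). For ACT minus TMT they ran from 0 to 3 at 0.01% (0), 4 to 8 at 0.1% (7), 0 to 6 at 1% (0) and 0 to 23 at 100% (1), for 100% against 1% ACT from 0 to 61 (0), and for 100% minus 0.1% ACT from 0 to 8 (0), with 0 to 1 lower (0). ORs called lower ran from 0 to 5 at 1% ACT (3), 0 to 6 at 100% ACT (0), 1 to 8 at 0.1% TMT (7), 0 to 11 at 1% TMT (2) and 8 to 123 at 100% TMT (36), and for ACT minus TMT from 5 to 10 at 0.1% (9), 0 to 24 at 1% (2) and 0 to 23 at 100% (1).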
